A study of Schmidtea mediterranea with 6 samples.

Results

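Transcripts of 4 predicted secreted matrix glycoproteins of the planarian *Schmidtea mediterranea* were followed through 6 tail libraries. They are contigs, that is assembled transcripts, of the dd_Smed_v6 transcriptome: dd_Smed_v6_2674_0_1 and dd_Smed_v6_4428_0_1, whose products carry von Willebrand factor A (vWA) domains, dd_Smed_v6_1748_0_1, whose best human match is the fibrillin FBN2, and dd_Smed_v6_651_0_1, a contig of a large mucin-related gene named after MUC19. They are called dd_2674, dd_4428, dd_1748, and dd_651 here. These 4 of 28742 contigs were chosen by name with their levels in these libraries, and the spread of these levels, known. Their values are therefore given as a description.

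Libraries came from *hmcn-1(RNAi)* animals (n = 3) and control animals (n = 3) of the clonal strain CIW4. *hmcn-1* encodes hemicentin-1, a matrix glycoprotein made by body wall muscle, and was inhibited by feeding double-stranded RNA, which in planarians acts throughout the body. Control animals were fed double-stranded RNA for *unc-22*, a *C. elegans* gene that planarians lack. The RNA of a library came from 5 pooled tails taken within minutes of amputation after 13 days of RNAi and 4 feedings, and nothing beyond the pooling tells whether the libraries of a condition came from separate cultures. The tails are mixed tissue, in which fewer cells of a type and less RNA per cell cannot be told apart.

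vWA domains are folds that bind other proteins, often collagens, and in vertebrates they are found in matrilins, integrins, and collagen VI chains. Fibrillins are glycoproteins rich in EGF-like repeats that assemble into microfibrils in connective tissue. Mucins are very large, heavily glycosylated proteins that gland cells and epithelia secrete, and planarians release mucus from gland cells.

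Library totals were 8486402 to 11887127 reads in *hmcn-1(RNAi)* and 6374450 to 8474929 reads in control tails. Levels are given as CPM, the reads of a contig in 1000000 reads, with totals scaled by TMM factors of 0.977 to 1.02. *hmcn-1* itself averaged 17.8 ± 1.05 CPM in *hmcn-1(RNAi)* tails and 204 ± 0.965 CPM in control tails (SD, n = 3 each), and this decrease passed the test (log2 fold change -3.53 ± 0.06 (SE), adjusted p = 7.39e-31, quasi-likelihood test of edgeR, Benjamini-Hochberg). Of 15333 contigs tested, 173 (1.13%) were called at an adjusted p under 0.05, 79 (0.515%) higher and 94 (0.613%) lower in *hmcn-1(RNAi)*. Leaving out a library gave as few as 88 calls (*hmcn-1(RNAi)* replicate 1), 91 calls (*hmcn-1(RNAi)* replicate 3), and 75 calls (control replicate 3). Posterior genes summed to 93.1 to 104 CPM in *hmcn-1(RNAi)* and 95.8 to 123 CPM in control tails, and 7 anterior genes summed to 48.9 to 53.3 CPM in *hmcn-1(RNAi)* and 50.9 to 55.2 CPM in control tails. Most of the anterior sum came from *prep*, and the other 6 genes summed to 10.5 to 14.0 CPM in *hmcn-1(RNAi)* and 12.0 to 14.0 CPM in control tails.

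All 4 contigs had higher mean levels in *hmcn-1(RNAi)* tails, by 2.39-fold to 2.89-fold in the fit, and libraries of one condition differed by 2.10-fold to 5.53-fold. In *hmcn-1(RNAi)* replicate 3 all 4 were high and in *hmcn-1(RNAi)* replicate 1 all but dd_2674 were, whereas *hmcn-1(RNAi)* replicate 2 lay close to the control tails, and for dd_2674 so did replicate 1. In dd_2674 alone, that is 1 of 4 contigs, every *hmcn-1(RNAi)* library lay above every control library, an arrangement that 7.81% of the tested contigs had. The conditions did not overlap in 15.6% of the tested contigs, with *hmcn-1(RNAi)* lower in 7.76%. Because the contigs were chosen from this contrast, nothing is read from this count, and no call is given for them.

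**Figure D1:**
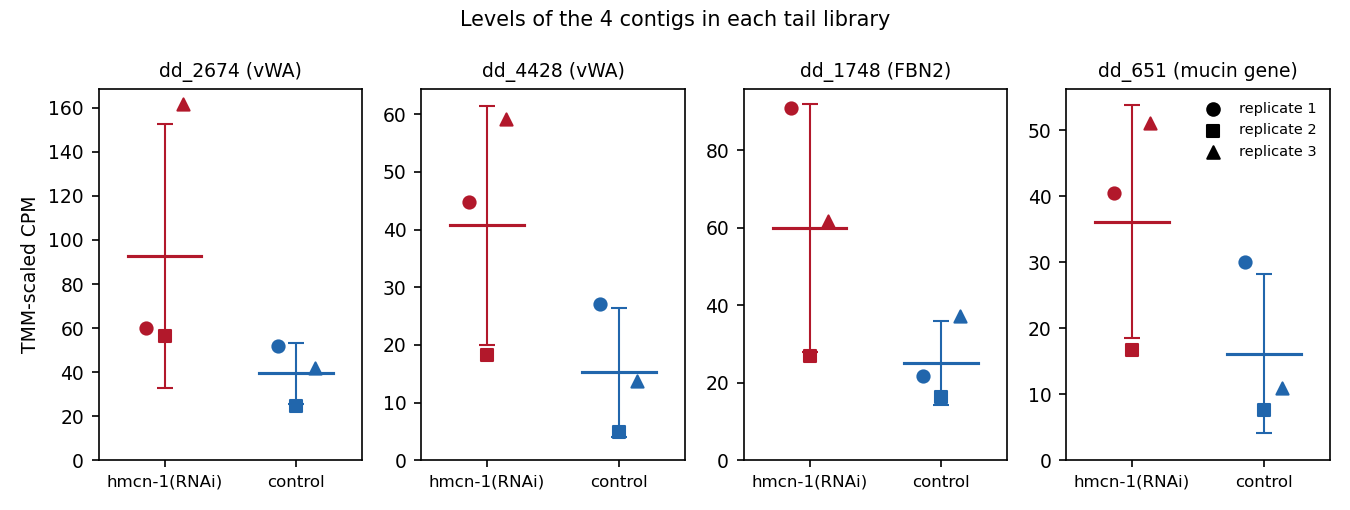
TMM-scaled CPM of the 4 contigs in each tail library, with *hmcn-1(RNAi)* in red at the left and control in blue at the right of each panel. Symbols mark the replicate number, lines the mean and bars the SD (n = 3 each); dd_2674 reached 162 CPM in *hmcn-1(RNAi)* replicate 3, and the conditions overlapped in the other panels.

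The first vWA contig, dd_2674, encodes a protein whose best human match is COL6A5, a collagen VI chain built largely of repeated vWA domains. It was counted with 513, 477, and 1918 reads in *hmcn-1(RNAi)* replicates 1, 2, and 3, and with 322, 211, and 346 reads in control replicates 1, 2, and 3. Its level was 59.8, 56.4, and 162 CPM in the *hmcn-1(RNAi)* libraries and 51.7, 24.6, and 41.8 CPM in the control libraries. A single library, *hmcn-1(RNAi)* replicate 3, stood far above the rest, and *hmcn-1(RNAi)* replicates 1 and 2 were close to control replicate 1. The mean was 92.6 ± 59.9 CPM in *hmcn-1(RNAi)* and 39.4 ± 13.7 CPM in control tails (SD, n = 3 each), a log2 fold change of 1.29 ± 0.62 (SE). Without *hmcn-1(RNAi)* replicate 3 the log2 fold change was 0.59.

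The second vWA contig, dd_4428, best matches COL6A6, another collagen VI chain of the same build. It had 384, 154, and 702 reads in *hmcn-1(RNAi)* and 169, 42, and 114 reads in control libraries, in order of replicate number. These counts correspond to 44.8, 18.2, and 59.2 CPM in *hmcn-1(RNAi)* and 27.1, 4.90, and 13.8 CPM in control tails. The conditions overlapped, since control replicate 1 lay above *hmcn-1(RNAi)* replicate 2, and control replicate 2 was the lowest by a wide margin. The mean was 40.7 ± 20.8 CPM in *hmcn-1(RNAi)* and 15.3 ± 11.2 CPM in control tails (SD, n = 3 each), with a log2 fold change of 1.53 ± 0.75 (SE). Leaving out control replicate 1 moved it to 2.17.

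The fibrillin-like contig, dd_1748, is listed with FBN2 as its best human match, but its leading domain in the same annotation is again vWA, so the name rests on the match alone. The study's single-cell assignment placed it in cathepsin+ cells, a class that includes phagocytic, pigment, and glial cells. Reads numbered 780, 228, and 734 in *hmcn-1(RNAi)* and 135, 139, and 307 in control libraries. Its level was 90.9, 26.9, and 61.9 CPM in *hmcn-1(RNAi)* and 21.7, 16.2, and 37.1 CPM in control tails. Here *hmcn-1(RNAi)* replicate 1 was highest, and control replicate 3 lay above *hmcn-1(RNAi)* replicate 2. The mean was 59.9 ± 32.0 CPM in *hmcn-1(RNAi)* and 25.0 ± 10.8 CPM in control tails (SD, n = 3 each), and the log2 fold change was 1.26 ± 0.61 (SE).

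The mucin-gene contig, dd_651, takes its name from its gene and not from its own sequence: its own best human match, IL18, is no mucin, and it is annotated as a part of the transcript dd_1647 with unclear splicing. It was assigned to the intestine. It had 348, 142, and 607 reads in *hmcn-1(RNAi)* and 187, 65, and 90 reads in control libraries. The corresponding levels were 40.6, 16.8, and 51.2 CPM in *hmcn-1(RNAi)* and 30.0, 7.59, and 10.9 CPM in control tails. As in dd_4428, control replicate 1 exceeded *hmcn-1(RNAi)* replicate 2 and control replicate 2 was lowest. The mean was 36.2 ± 17.6 CPM in *hmcn-1(RNAi)* and 16.2 ± 12.1 CPM in control tails (SD, n = 3 each), a log2 fold change of 1.28 ± 0.71 (SE), which became 2.004 without control replicate 1.

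Set against the mean of the control libraries, the contigs lay between 1.52-fold and 3.64-fold in *hmcn-1(RNAi)* replicate 1 and between 2.47-fold and 4.11-fold in *hmcn-1(RNAi)* replicate 3. In *hmcn-1(RNAi)* replicate 2 they lay between 1.04-fold and 1.43-fold. The control libraries differed among themselves as well: replicate 1 lay between 0.867-fold and 1.86-fold of the control mean, replicate 2 between 0.321-fold and 0.649-fold, and replicate 3 between 0.673-fold and 1.48-fold. All 4 contigs were thus lowest in control replicate 2 and had their highest levels in *hmcn-1(RNAi)* replicates 1 and 3. Among all 15333 tested contigs, 300 (1.96%) had this arrangement. The log2 span of a contig is its highest minus its lowest log2 CPM of the 6 libraries, and of the 106 tested contigs that had a span above 1 and averaged at least 100 reads, 26 (24.5%) had it.

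Over the 6 libraries, the level of dd_4428 spanned 12.1-fold, that of dd_651 6.74-fold, that of dd_2674 6.57-fold, and that of dd_1748 5.60-fold. Much of this lay within a condition. The 3 *hmcn-1(RNAi)* libraries spanned 2.87-fold for dd_2674, 3.25-fold for dd_4428, 3.38-fold for dd_1748, and 3.05-fold for dd_651. The control libraries spanned 2.10-fold for dd_2674, 5.53-fold for dd_4428, 2.29-fold for dd_1748, and 3.96-fold for dd_651.

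The SD of log2 CPM within conditions was 0.72 for dd_2674, 1.07 for dd_4428, 0.76 for dd_1748, and 0.94 for dd_651, where the median of all tested contigs was 0.13. Between 0.202% and 0.907% of the tested contigs had a larger one. The log2 span was 2.71 for dd_2674, 3.56 for dd_4428, 2.48 for dd_1748, and 2.74 for dd_651, and 18 to 71 tested contigs had a larger span. Because the spread of these contigs was the reason for choosing them, nothing is read from these ranks. In the library with the fewest reads, counting alone gives an SD of 0.10 for dd_2674, 0.22 for dd_4428, 0.12 for dd_1748, and 0.18 for dd_651 on the log2 scale. The standard errors of the 4 fold changes, 0.61 to 0.75, stand beside a median of 0.08 for tested contigs that averaged at least 100 reads.

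**Figure D2:**
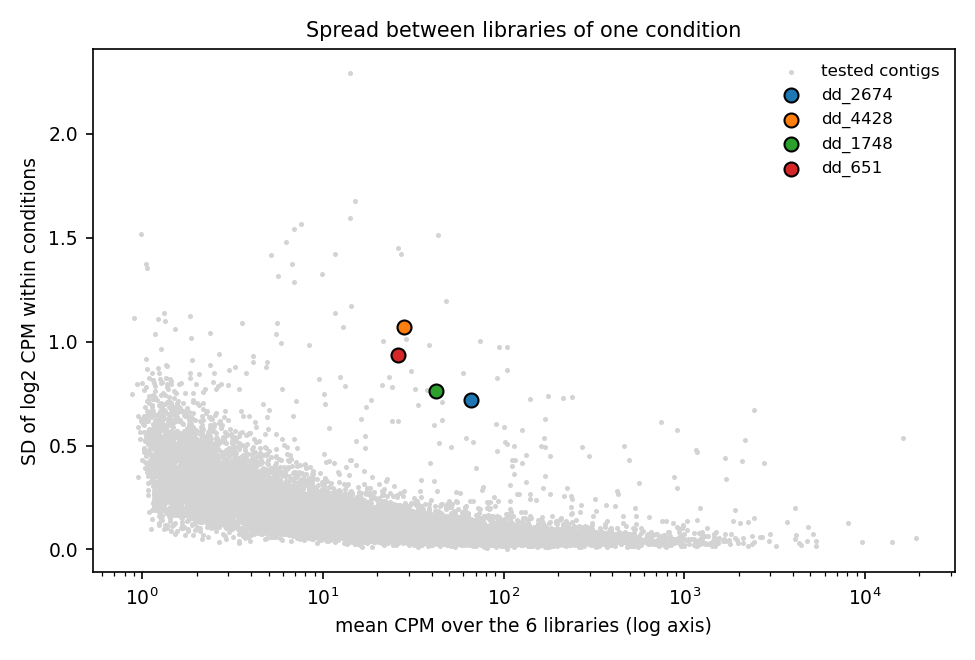
SD of log2 CPM between libraries of one condition, averaged over both conditions as variances, against mean CPM over the 6 libraries on a log axis, for the tested contigs in grey and the 4 contigs in colour. The 4 contigs, which were chosen for their spread, sit at 0.72 to 1.07, above nearly all contigs of similar level.

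The contigs did not vary as a single unit. The likeness of their profiles was measured as the root mean square (RMS) difference of log2 CPM after each contig was centred on its mean over the 6 libraries, so that 0 means the same profile; the libraries are shared by all contigs and the measure is a description. dd_4428 and dd_651 were closest, at 0.31, and their reads stood in a ratio of 1.10, 1.08, and 1.16 in *hmcn-1(RNAi)* and 0.904, 0.646, and 1.27 in control libraries, not corrected for length. The other pairs differed by 0.52 to 0.72. Reads of the vWA contig dd_2674 relative to dd_1748 ranged from 0.658 to 2.61 over the libraries, a 3.97-fold range, and those of dd_1748 relative to dd_651 ranged 4.73-fold. dd_4428 and dd_651 ranked the 6 libraries identically, whereas dd_1748 placed control replicate 3 above control replicate 1.

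For each contig, the closest profiles were sought among 529 contigs that the study's gene tables name and that averaged at least 100 reads. dd_2674 was closest to dd_3193 (MRC1), a C-type lectin protein of the mannose receptor type, at an RMS difference of 0.11, where the median contig differed by 0.81. That median mostly reflects the spread of dd_2674 itself, since the median log2 span of tested contigs was only 0.36. dd_3193 had 71.2, 77.0, and 242 CPM in *hmcn-1(RNAi)* and 71.4, 31.4, and 60.0 CPM in control tails, and the ratio of dd_2674 reads to its reads stayed between 0.669 and 0.840. It was also the closest of all 9049 contigs compared. The next named profiles were dd_3266, another MRC1 match, at 0.39 and the mucin-gene contig dd_1647 at 0.40.

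For dd_4428 the closest named profile was that of *val8*, which encodes a CAP-domain protein with a fibronectin type II domain, at an RMS difference of 0.19, followed by the vWA contig dd_2803 at 0.21. *val8* was also the closest profile to dd_651, at 0.19. It had 38.1, 12.5, and 43.2 CPM in *hmcn-1(RNAi)* and 21.0, 5.02, and 9.91 CPM in control tails. The third named contig for dd_651, after dd_4428, was dd_961, a match to the astacin metalloprotease ASTL, at 0.34. dd_1748 had the closest profile in dd_855, a fibronectin type II protein, at 0.30, followed by the SCO-spondin match dd_3185 at 0.49 and dd_1647 at 0.53. dd_855 had 35.1, 12.2, and 22.3 CPM in *hmcn-1(RNAi)* and 7.39, 10.3, and 17.2 CPM in control tails, so the higher level in control replicate 3 than in control replicate 1 that set dd_1748 apart was also present there.

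Other secreted vWA contigs were taken from the study's matrisome table by their domain annotation. Of 5, 3 had enough reads to be tested, and edgeR called 0 of them, with 1 under an unadjusted p of 0.05; DESeq2 and limma-voom also called 0. dd_2803, a vWA contig without a human gene in its name, came closest to the chosen contigs. It had 25.6, 7.21, and 29.1 CPM in *hmcn-1(RNAi)* and 13.0, 2.45, and 8.82 CPM in control tails, a log2 fold change of 1.46 ± 0.80 (SE) with an adjusted p of 0.63 (edgeR, Benjamini-Hochberg). Relative to dd_4428 its reads kept a ratio of 0.396 to 0.640 over all libraries. By contrast, dd_1071, a match to vitrin (VIT) assigned to the pharynx, had 3.52 ± 0.204 CPM in *hmcn-1(RNAi)* and 2.51 ± 0.345 CPM in control tails (SD, n = 3 each), with an adjusted p of 0.448 in edgeR. dd_194, an intestinal lipid transport protein with a vWA annotation, averaged 5067 ± 48.4 CPM in *hmcn-1(RNAi)* and 4639 ± 502 CPM in control tails (SD, n = 3 each; adjusted p = 0.669, edgeR), and it was called when control replicate 1 was left out (adjusted p = 3.3e-05, edgeR). dd_61913 and dd_7616 had at most 4 reads in a library and were not tested. The tested vWA contigs that lack a signal peptide (dd_1027 and dd_4790, both VWA5A matches, dd_9363, a VWA3B match, and dd_2397) had log2 fold changes of -0.20 to 0.05 and adjusted p of 0.276 to 0.852 in edgeR.

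Contigs whose best human match is a fibrillin, a fibulin, or a latent TGF-beta binding protein were taken as the fibrillin-like list, which leaves out the NOTCH1 match dd_Smed_v6_10716_0_1 that the study also annotates as fibrillin-like (log2 fold change -0.20 ± 0.14 (SE), adjusted p = 0.669, edgeR). All 5 other contigs of this list were tested, and they spanned 1.12-fold to 1.35-fold over the 6 libraries, against 5.60-fold for dd_1748. Their log2 fold changes ran from -0.05 to 0.17, and their median SD within conditions was 0.09, against 0.76 for dd_1748. Because dd_1748 was chosen for its spread, nothing is read from its larger span and SD. Only dd_2649, an FBN2 match that the study lists as a large mucin-related gene of parapharyngeal cells, passed the test. It had 247, 233, and 237 CPM in *hmcn-1(RNAi)* and 212, 208, and 215 CPM in control tails, so that its conditions did not overlap. It too was highest in *hmcn-1(RNAi)* replicates 1 and 3 and lowest in control replicate 2, but with a span of 1.19-fold. Its log2 fold change was 0.17 ± 0.04 (SE, adjusted p = 0.034, edgeR, Benjamini-Hochberg), and the adjusted p was 0.0684 in DESeq2 and 0.0818 in limma-voom. The call was also lost without *hmcn-1(RNAi)* replicate 1 or 3, or without control replicate 2 or 3, at adjusted p of up to 0.248 (edgeR). dd_10142 (FBN2, muscle), dd_1886 (FBN2, pharynx), dd_7311 (LTBP2, cathepsin+ cells), and dd_8459 (EFEMP1) were not called, with adjusted p of 0.749 to 0.895 in edgeR.

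Of 11 other contigs of large mucin-related genes, 6 were tested and 1, the same dd_2649, was called by edgeR, where 1.13% of all tested contigs were called; DESeq2 and limma-voom called 0 of the 6. dd_1647, which shares a gene model with dd_651, had 59.2, 30.7, and 70.6 CPM in *hmcn-1(RNAi)* and 42.5, 19.5, and 26.2 CPM in control tails. It ranked the libraries as dd_651 did, yet its span was 3.62-fold against 6.74-fold, and the ratio of dd_651 to dd_1647 reads was 0.685, 0.546, and 0.725 in *hmcn-1(RNAi)* and 0.706, 0.389, and 0.415 in control libraries. These contigs of one gene model thus differed in their relative reads by up to 1.86-fold between libraries. The larger span of dd_651, which was chosen for its spread, is a description only. The log2 fold change of dd_1647 was 0.92 ± 0.47 (SE, adjusted p = 0.597, edgeR).

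The SCO-spondin (SSPO) matches dd_3183 and dd_3185 were also highest in *hmcn-1(RNAi)* replicates 1 and 3. dd_3185 had 83.7, 42.4, and 71.2 CPM in *hmcn-1(RNAi)* and 51.1, 26.6, and 33.7 CPM in control tails, a log2 fold change of 0.86 ± 0.39 (SE, adjusted p = 0.548, edgeR). dd_3183 had 56.0, 36.3, and 52.4 CPM in *hmcn-1(RNAi)* and 42.9, 30.1, and 28.3 CPM in control tails, with a log2 fold change of 0.54 ± 0.26 (SE, adjusted p = 0.577, edgeR). In both, control replicate 1 lay above *hmcn-1(RNAi)* replicate 2, and dd_3185 was lowest in control replicate 2 but dd_3183 in control replicate 3. The abundant SSPO match dd_628, which the study used in its parenchymal cell probe pool, varied little. This contig averaged 647 ± 36.5 CPM in *hmcn-1(RNAi)* and 600 ± 12.0 CPM in control tails (SD, n = 3 each, adjusted p = 0.27, edgeR) and spanned 1.16-fold. Its second contig dd_9342 had 12 to 18 reads in *hmcn-1(RNAi)* and 4 to 48 reads in control libraries (log2 fold change -1.11, adjusted p = 0.635, edgeR). Its log2 fold change was -1.51 without control replicate 1 (adjusted p = 0.00148, edgeR) and -0.43 without control replicate 2 (adjusted p = 0.808, edgeR). The remaining 5 contigs (dd_35076, dd_38233, dd_21309, dd_18786, and dd_17988) had too few reads to be tested.

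**Figure D3:**
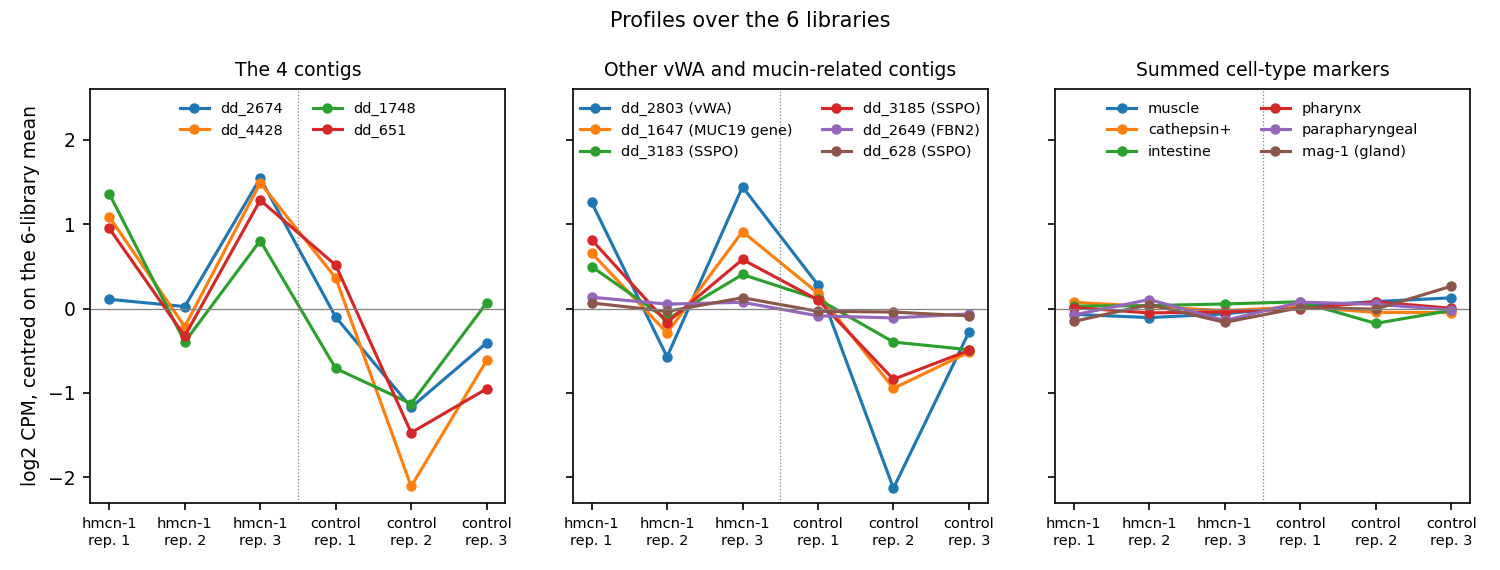
log2 CPM of each contig, or of the summed markers of a cell type, centred on its mean over the 6 libraries, with the 3 *hmcn-1(RNAi)* libraries at the left and the 3 control libraries at the right of each panel. dd_2803, dd_1647, dd_3183, and dd_3185 peak in *hmcn-1(RNAi)* replicates 1 and 3 like the 4 contigs, whereas dd_2649, dd_628, and the marker sums drawn are nearly flat on this scale. The neural and epidermal sums and the parenchymal probe pool are not drawn.

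In the wider class of core glycoproteins, 90 of 117 other contigs were tested and 2 were called, both higher in *hmcn-1(RNAi)*: dd_2649 and the intestinal colipase-domain contig dd_Smed_v6_1144_0_1 (dd_1144, log2 fold change 0.17 ± 0.04 (SE), adjusted p = 0.0296, edgeR). This is to be read beside the 1.13% called among all tested contigs. Leaving out 1 library gave 0 calls (without control replicate 3) to 10 calls (without control replicate 1) in this class, with 8 calls without *hmcn-1(RNAi)* replicate 2. The median log2 fold change of the class was 0.03 and the median span 0.36, close to the median span of all tested contigs (0.36). The medians of the 4 chosen contigs, 1.28 for the log2 fold change and 2.72 for the span, come from values that chose them.

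**Figure D4:**
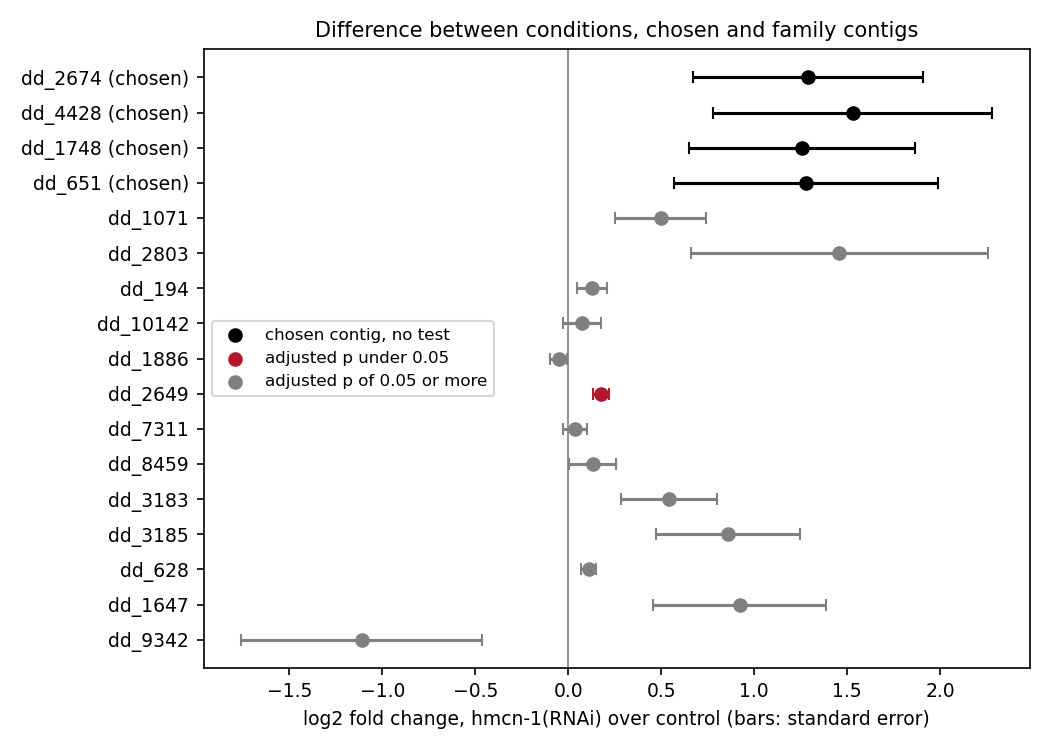
Log2 fold change of *hmcn-1(RNAi)* over control with its standard error for the 4 chosen contigs (black, no test) and the tested contigs of the vWA, fibrillin-like, and mucin-related lists (red, adjusted p under 0.05; grey, not called). The chosen contigs lie at 1.26 to 1.53 with errors of 0.61 to 0.75, and the only called contig, dd_2649, lies at 0.17 with an error of 0.04.

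Summed levels of cell-type markers were far more even over the libraries than the 4 contigs. These contigs were chosen for their spread, so nothing is read from this difference. The sum of the 4 contigs was 236, 118, and 334 CPM in *hmcn-1(RNAi)* and 131, 53.3, and 104 CPM in control tails, a 6.26-fold span. The 9 marker lists spanned 1.09-fold to 1.35-fold over the same libraries, and in 0 of 9 were *hmcn-1(RNAi)* replicates 1 and 3 the highest pair. Cathepsin+ markers (22 contigs), the class of dd_1748, summed to 14071 to 15069 CPM in *hmcn-1(RNAi)* and 13853 to 14522 CPM in control tails. The lists do not stand for every contig assigned to a class. Outside them, dd_3193 (cathepsin+) spanned 7.70-fold, dd_3266 (muscle) 5.88-fold, and dd_855 (pharynx) 4.75-fold, all found above by their likeness to the 4 contigs. Intestinal markers (8 contigs), the class of dd_651, summed to 15841 to 16134 CPM in *hmcn-1(RNAi)* and 13751 to 16419 CPM in control tails, with control replicate 2 lowest. Most of this sum came from dd_48 and dd_194, at means of 5370 and 5067 CPM in *hmcn-1(RNAi)*, so it says little about the less abundant contigs.

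Levels of parapharyngeal, parenchymal, and gland markers were as even. The 8 parapharyngeal contigs summed to 10104 to 12000.1 CPM in *hmcn-1(RNAi)* and 11023 to 11750 CPM in control tails. Most of this sum came from dd_91, at 7105 to 8840 CPM over the libraries. Likewise, dd_Smed_v6_238_1_1 held 3348 to 4484 CPM of the probe pool that follows, so both sums say little about their other contigs. The parenchymal probe pool (5 contigs) summed to 5475 to 6463 CPM in *hmcn-1(RNAi)* and 5311 to 5588 CPM in control tails, and the gland gene *mag-1* had 921 to 1066 CPM in *hmcn-1(RNAi)* and 1027 to 1239 CPM in control tails. Muscle markers were lower in *hmcn-1(RNAi)* at 12664 to 13053 CPM, against 13921 to 14896 CPM in control tails, and 9 of 18 were called lower, where 0.613% of all tested contigs were. These markers were taken from matrisome genes and excluded matrisome candidates and include the collagen gene *colF-1* and *sparc*. The study's list of contractile muscle genes was not used, so the sum does not stand for muscle as a whole. No marker contig was at 0 in every library. Neural markers (3 contigs) summed to 833 to 870 CPM in *hmcn-1(RNAi)* and 915 to 946 CPM in control tails. Epidermal markers (2 contigs) summed to 1153 to 1244 CPM and 1271 to 1296 CPM in the same order. Both sums were thus lower in every *hmcn-1(RNAi)* library, with 0 contigs called, where 1.13% of all tested contigs were. Pharynx markers (6 contigs) overlapped, at 542 to 567 CPM in *hmcn-1(RNAi)* and 561 to 594 CPM in control tails. Whether muscle or any other cell type has a part in the levels of the 4 contigs was not tested. The library kit kept the strand, but the sources used here do not say whether the counting used it, nor how reads matching several contigs were treated beyond taking the best alignment. Related contigs such as dd_651 and dd_1647 or dd_4428 and dd_2803 may share reads.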

How the data were processed

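Per the labels and methods, the authors trimmed reads with cutadapt 1.8, mapped them with Bowtie 1.2.2 to the dd_Smed_v6 transcriptome, joined reads of isotigs of a contig, and deposited raw read counts for each contig without normalization, the unit used here. A second deposited table holds the authors' own DESeq2 means, fold changes, and p-values and was not used. The 6 columns were matched to libraries by name. Counts were analysed in R 4.3.3 with edgeR 4.0.16: contigs were kept by filterByExpr (minimum count 10), libraries scaled by TMM, and condition fitted alone in a robust quasi-likelihood model. P-values of the 15333 contigs kept were adjusted by Benjamini-Hochberg, with calls at an adjusted p under 0.05. Standard errors were obtained from the log2 fold change and the root of its F value. Log2 CPM used a prior count of 1. No library was a copy of another (chi-square per degree of freedom 2.24 to 9.63 over 15 pairs, on contigs whose summed count reached 20). The largest values were those of control replicate 1 against control replicates 2 (9.63) and 3 (7.77). Control replicates 2 and 3 gave 2.77, and pairs between the conditions gave 4.86 to 7.39.

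The 4 contigs and all lists were chosen with earlier results of these data known. Lists came from annotations in the study's matrisome and gene tables, in which 751 of 765 transcriptome links carry the identical contig identifier and the others differ only in isotig digits. Cell-type lists took matrisome genes and excluded candidates assigned to a class at an AUC above 0.8. The parapharyngeal list took every contig assigned to that class, and the probe pool and *mag-1* had no AUC cut. Named contigs are the 4, *hmcn-1*, all contigs of the vWA, fibrillin-like, and mucin-related lists, and for each of the 4 the 3 named contigs with the closest profile; dd_1144 was named after its values were seen. Alternatives were RLE and upper-quartile factors, library totals, other count filters, DESeq2 1.42.0, limma-voom (limma 3.58.1), the replicate number as a term, an adjusted p under 0.10, a prior count of 0.25 for spans, and each library left out in turn. Tables and plots used Python 3.11.15, pandas 2.3.3, and matplotlib 3.10.9. Contig sequences were not used here.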

Additional observations from a re-analysis of the deposited data

How the results depend on the processing

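The 4 contigs were chosen with this contrast known and the alternatives reuse the same libraries, so nothing is read from a constant sign. Their log2 fold changes stayed above 0 under every alternative. With a library left out they ranged from 0.59 to 1.54 for dd_2674, 1.07 to 2.17 for dd_4428, 0.86 to 1.68 for dd_1748, and 0.91 to 2.004 for dd_651, and under the other alternatives from 1.17 to 1.29, 1.42 to 1.74, 1.17 to 1.26, and 1.16 to 1.43 in the same order. With a library left out, the log2 span ranged from 1.28 to 2.71 for dd_2674 (1.28 without *hmcn-1(RNAi)* replicate 3, 1.95 without control replicate 2), from 2.09 (without control replicate 2) to 3.57 for dd_4428, from 1.93 to 2.48 for dd_1748, and from 2.22 to 2.74 for dd_651; scaling and prior count moved it to at most 2.71, 3.59, 2.48, and 2.75 in that order. The count of all called contigs was 339 without a count filter, 101 in DESeq2, 73 in limma-voom, 278 at an adjusted p under 0.10, and 75 to 255 with a library left out, lowest without control replicate 3 and also 88 and 91 without *hmcn-1(RNAi)* replicates 1 and 3. Called vWA contigs numbered 1 without the filter and 0 to 1 with a library left out (1 without control replicate 1, where the log2 fold change of dd_194 was 0.22). The call of dd_2649 was lost with library totals alone, in DESeq2, in limma-voom, and without *hmcn-1(RNAi)* replicate 1 or 3 or control replicate 2 or 3 (adjusted p 0.0143 to 0.248 over all alternatives), so fibrillin-like calls were 0 there and 0 to 1 with a library left out. Mucin-related calls were 0 with library totals, in DESeq2, and in limma-voom, 2 without the filter, and 0 to 2 with a library left out (2 without control replicate 1). Core glycoprotein calls were 1 with library totals, 10 without the filter, 0 in DESeq2 and limma-voom, 4 at an adjusted p under 0.10, and 0 to 10 with a library left out, lowest without control replicate 3 and highest without control replicate 1. Small log2 fold changes turned sign with a library left out: dd_2397 ranged from -0.0058 (without control replicate 1) to 0.086, dd_7311 from -0.010 (without control replicate 1) to 0.094, dd_9363 from -0.12 to 0.014 (without control replicate 3), and dd_10142 from -0.021 (without *hmcn-1(RNAi)* replicate 1; -0.011 without control replicate 3) to 0.14. The causes were not tested.

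The sample titles give a replicate number and state no pairing. Over all tested contigs, deviations from the condition means correlated at 0.01 to 0.08 for libraries with the same number. Other pairings gave -0.06 to 0.04, and not every library correlated best with its own number. The median contig had an SD within conditions of only 0.13, so this check cannot settle whether the libraries were paired. With the replicate number as a block, 292 of 15333 tested contigs were called. Among them were 1 of 3 tested vWA contigs (dd_2803, adjusted p = 8.03e-15, edgeR) and 7 of 90 core glycoproteins. Of 6 tested mucin-related contigs, 3 were called (dd_3183, adjusted p = 0.000612, dd_3185, adjusted p = 3.03e-17, edgeR, and dd_2649). Having 3 libraries a condition and the spread between them limits what can be shown for the 4 contigs, each of which had at least 42 reads in every library.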
